A study of Arabidopsis thaliana with 6 samples.

Results

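The transcripts of cells sorted from the Arabidopsis thaliana line named myrBRX were compared with those of cells sorted from the line named BRX, over all loci of the count tables. The members were taken by title, so 4 of the 6 libraries of the series were compared, 2 of each line. By their labels, the myrBRX plants had the genotype myrBRXp:myrBRX-YFP and the BRX plants BRXp:BRX-YFP, both in Columbia. All plants, those of the remaining line (BRXL2p:BRXL2-YFP) included, thus carried a YFP fusion driven by the promoter named in its label. By the labels, all plants had 2 days of cold and a setting of 22 C with 16 h of light and 8 h of dark. True leaves were taken 9 days post germination, and RNA was drawn from about 20000 sorted cells each time. The series calls the cells stomatal lineage ground cells (SLGCs). The labels do not say what the prefix myr stands for, which gate was used in the sort, whether the plants also carried a mutation at the BRX locus, or whether both libraries of a line go back to separate plants or to a single preparation. No untransformed control was analysed here.

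Stomatal lineage ground cells are the larger daughters of the asymmetric divisions by which young leaf epidermis makes stomata, and they may divide again or become pavement cells. The division is set up by proteins held at 1 side of the mother cell, and BREVIS RADIX (BRX) family proteins belong to that polar group, along with BASL. SPCH, MUTE and FAMA are the transcription factors that start the lineage, end its asymmetric divisions and drive guard cell formation, in that order.

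The libraries held 39085068 and 41096714 counts in myrBRX, against 25817906 and 35490278 counts in BRX. Chloroplast and mitochondrial loci made up 0.558% and 1.34% of the counts in myrBRX, against 5.34% and 3.77% in BRX. The pseudogene AT1G79245 took 6.89% and 6.13% of the counts in myrBRX, against 9.81% and 19.7% in BRX. Levels are given below as CPM (reads counted at a locus relative to the size of its library, after TMM scaling), always with library 1 before library 2. The myrBRX libraries were closer to each other than the BRX libraries were: 1314 of 18174 loci (7.23%) differed more than 4-fold between myrBRX 1 and 2, against 4363 (24%) between BRX 1 and 2. The correlation of log2 CPM over loci, which do not stand for replicates, was 0.88 for the myrBRX pair and 0.737 for the BRX pair; between BRX 2 and myrBRX 1 it was 0.8. The correlation between BRX 2 and myrBRX 2 was 0.766. Between BRX 2 and myrBRX 1, 16.3% of loci differed more than 4-fold, and between BRX 2 and myrBRX 2, 21.3%. By both measures BRX 2 stood nearer to each myrBRX library than to BRX 1, and nearer to myrBRX than BRX 1 did. The place of BRX 2 is given below for several gene groups, though not for all.

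**Figure D1:**
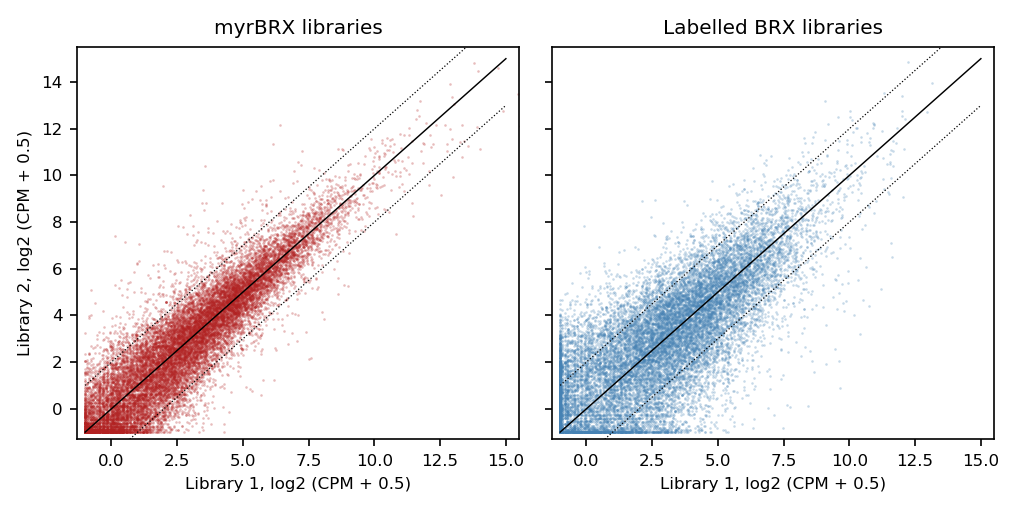
Level of each tested locus in library 2 against library 1 of the same line, as log2 of CPM plus 0.5, with myrBRX at left and the libraries labelled BRX at right. The solid line marks equal levels and the dotted lines a 4-fold difference; 7.23% of loci lie outside them in myrBRX and 24% in the libraries labelled BRX.

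The construct's own gene came first. BRX stood at 32.4 and 72.7 CPM in myrBRX, against 6.1 and 11.7 CPM in the libraries labelled BRX, a log2 fold change of 2.56 ± 0.85 (adjusted p = 0.256, edgeR quasi-likelihood test). Both myrBRX libraries were above both of the line labelled with BRX. The BRXL2 libraries, which carry no BRX construct by their labels, held 22.7 and 31.9 CPM and so were also above the BRX line. In the BRXL2 line, the gene BRXL2 stood at 1570 and 1378 CPM. The labels do not say whether reads of a construct were counted at the locus of its gene. The label of the BRX line is thus not borne out by its BRX level, though the difference did not pass the test and the reason was not tested. Its samples are called the libraries labelled BRX. The other family members were lower in myrBRX or overlapped. BRXL2 had 21.5 and 12.6 CPM in myrBRX, against 150.1 and 95.5 CPM in the libraries labelled BRX (log2 fold change -2.85 ± 0.92). BRX-LIKE3 had 2.89 and 1.43 CPM in myrBRX, against 12.5 and 19.9 CPM in the libraries labelled BRX, and BRXL4 had 2.98 and 2.29 CPM in myrBRX, against 13.2 and 5.75 CPM in the libraries labelled BRX. For these 3 genes both myrBRX libraries lay below both libraries labelled BRX. BRXL1 had 3.58 and 0.156 CPM against 1.37 and 1.59 CPM in the same order, with the lines overlapping, and its sign turned without myrBRX 1. No family member passed the test.

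No locus passed the threshold of 0.05 on the adjusted p: 0 of 18174 (0%), with a lowest adjusted p of 0.093. At an unadjusted p under 0.05 the same edgeR test gave 1287 loci higher in myrBRX (7.08%) and 1291 lower (7.1%), and at an adjusted p under 0.25 it gave 340 higher and 357 lower. DESeq2, run on the same counts, called 745 loci higher and 748 lower. Leaving out 1 library at a time moved the edgeR count to at most 149 higher and 178 lower, both reached without BRX 2, and to 0 higher and 1 lower without BRX 1. By position alone, both myrBRX libraries lay above both libraries labelled BRX at 4849 loci (26.7%) and below both at 4078 loci (22.4%). These 2 percentages are the background for every list below. Counts by position asked for no smallest gap or level, so some members were separated by hardly anything. The empty space between the lines was at least 2-fold at 1734 loci above and 1377 below, at least 4-fold at 504 and 344, and at least 16-fold at 25 and 6. Of the 4849 loci above, BRX 2 was the higher of the libraries labelled BRX, and so the nearer to myrBRX, at 3123, and of the 4078 below it was the lower at 2520. The BRXL2 line did not usually fall in between: both BRXL2 libraries lay between the lines at 435 of the 4849 loci and at 458 of the 4078.

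Levels near 0 were not balanced between the lines. At 338 loci both libraries labelled BRX had 0 counts while both myrBRX libraries held more than 3, and at 40 loci the reverse was true. The libraries labelled BRX were the shallower pair, and the part of depth in these counts was not tested. The median log2 fold change over all tested loci was -0.03.

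**Figure D2:**
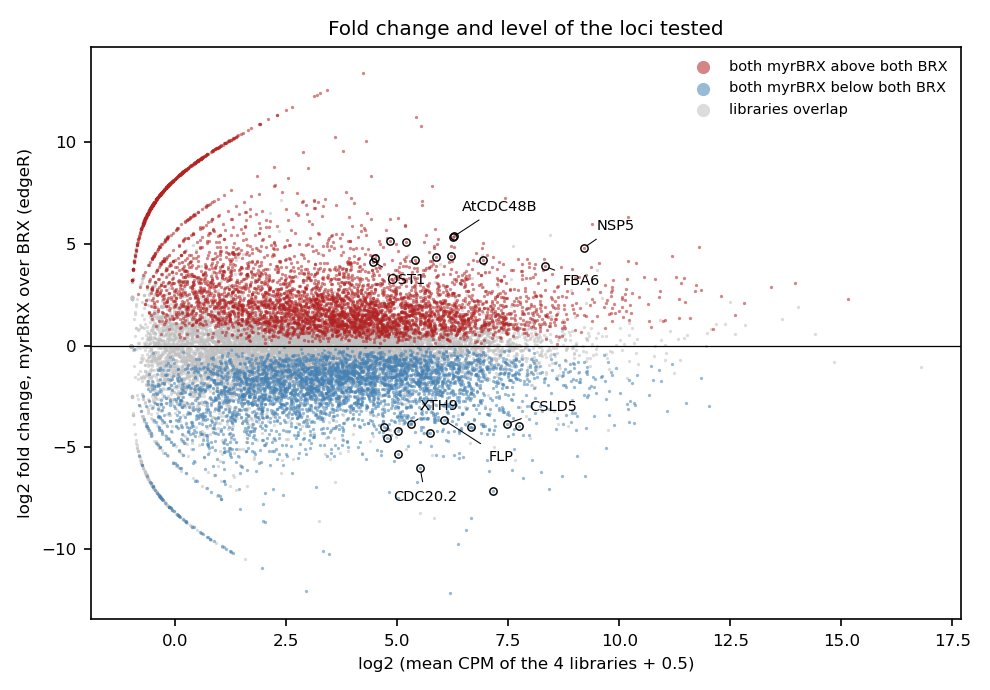
Log2 fold change of myrBRX over BRX from the edgeR fit against the mean level of each tested locus over the 4 libraries. Red points (4849) have both myrBRX libraries above both libraries labelled BRX, blue points (4078) have both below, and circles mark the genes chosen by lowest p; no point passed an adjusted p of 0.05, and the curves of points at left are loci near 0 counts in one line.

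Genes were named in each direction by lowest p among those with a symbol, a mean of at least 3 on the log2 CPM scale and no overlap between the lines, leaving out the G2/M, heat shock and glutathione S-transferase lists. Their separation follows from that rule. Among the genes higher in myrBRX were several of metabolism. NSP5, a nitrile-specifier protein that directs the breakdown of glucosinolates, had 1151 and 1111 CPM in myrBRX, against 26.8 and 55.1 CPM in the libraries labelled BRX (log2 fold change 4.79 ± 0.99, adjusted p = 0.202). FBA6, a cytosolic fructose-bisphosphate aldolase of glycolysis, had 611 and 591 CPM in myrBRX, against 22.2 and 58.8 CPM in the libraries labelled BRX (log2 fold change 3.89 ± 0.93). ATBETAFRUCT4, a vacuolar invertase that splits sucrose, had 42.7 and 42.1 CPM in myrBRX, against 2.14 and 2.12 CPM in the libraries labelled BRX. In all 3 the myrBRX libraries stood close together, and ATBETAFRUCT4 differed little within either line.

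ISU1, the mitochondrial scaffold on which iron-sulphur clusters are built, had 61.8 and 97 CPM in myrBRX, against 2.26 and 6.25 CPM in the libraries labelled BRX. AtCDC48B, a member of the CDC48 family of ATPases that pull ubiquitinated proteins out of complexes, had 179 and 118 CPM in myrBRX, against 3.11 and 4.27 CPM in the libraries labelled BRX, a log2 fold change of 5.33 ± 0.91 with an adjusted p of 0.161. BT1, an adaptor of ubiquitin ligases with BTB and TAZ domains, had 92.1 and 129 CPM in myrBRX, against 3.48 and 7.21 CPM in the libraries labelled BRX. Its relative BT2 had 184 and 303 CPM in myrBRX, against 13.2 and 85.3 CPM in the libraries labelled BRX, with BRX 2 well above BRX 1.

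OST1, the protein kinase through which abscisic acid closes stomata, had 49.4 and 32.1 CPM in myrBRX, against 1.19 and 3.54 CPM in the libraries labelled BRX (log2 fold change 4.11 ± 0.96). ELI3-1, a cinnamyl alcohol dehydrogenase family member, had 92.4 and 209 CPM in myrBRX, against 3.48 and 3.74 CPM in the libraries labelled BRX. GRP3S, a small glycine-rich protein, had 167 and 297 CPM in myrBRX, against 10.2 and 14.6 CPM in the libraries labelled BRX; reads of close relatives of this gene may be shared. The libraries of each line lay within a few-fold of each other for these genes. MES11, of the methylesterase family, had 29.2 and 111 CPM in myrBRX, against 2.81 and 1.29 CPM in the libraries labelled BRX. CYP76C2, a cytochrome P450, had 37.6 and 71.1 CPM in myrBRX, against 0.671 and 2.45 CPM in the libraries labelled BRX. Their levels in the libraries labelled BRX were near 0 to a few CPM. FH4, a formin that nucleates actin filaments, had 29.2 and 253 CPM in myrBRX, against 6.8 and 6.45 CPM in the libraries labelled BRX, so its level in myrBRX 2 was far above that in myrBRX 1. ELIP1, the early light-induced protein of chloroplasts, was added by the width of its gap, at 61.7 and 59.1 CPM in myrBRX, against 3.63 and 4.69 CPM in the libraries labelled BRX.

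Among the genes lower in myrBRX, many act in division. CDC20.2, an activator of the anaphase-promoting complex, had 1.47 and 1.25 CPM in myrBRX, against 60.5 and 118 CPM in the libraries labelled BRX, a log2 fold change of -6.03 ± 0.95 (adjusted p = 0.129); it has a near-identical copy, so its counts may be shared. CDT1B, which licenses replication origins, had 1.47 and 1.61 CPM in myrBRX, against 39.7 and 84.7 CPM in the libraries labelled BRX (log2 fold change -5.33 ± 0.94). MAD2, of the spindle checkpoint, had 4.75 and 1.88 CPM in myrBRX, against 66.3 and 53.9 CPM in the libraries labelled BRX. For these 3 genes BRX 1 and BRX 2 were both high. UBC20, a ubiquitin-conjugating enzyme, had 3.73 and 6.41 CPM in myrBRX, against 53.7 and 148 CPM in the libraries labelled BRX. PLE, a microtubule-bundling protein of the cytokinetic phragmoplast, had 17.1 and 6.85 CPM in myrBRX, against 230.2 and 148 CPM in the libraries labelled BRX. ATK5, a spindle kinesin, had 35.3 and 16.4 CPM in myrBRX, against 479.8 and 329 CPM in the libraries labelled BRX. By gap the rule added TPX2, a spindle assembly factor, and TOPII, the DNA topoisomerase II. TPX2 had 45.1 and 38.5 CPM in myrBRX, against 779 and 654 CPM in the libraries labelled BRX, and TOPII had 46.1 and 65 CPM in myrBRX, against 696 and 897 CPM in the libraries labelled BRX. All of these genes were higher in the libraries labelled BRX by more than the distance between libraries of either line.

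The other lower genes include polarity and wall genes. ROPGEF6, an exchange factor that activates ROP GTPases, had 2.68 and 3.28 CPM in myrBRX, against 48.7 and 48.2 CPM in the libraries labelled BRX (log2 fold change -4.02 ± 0.90), with hardly any spread within a line. NCRK, a receptor-like kinase reported to bind ROP GTPases, had 2.32 and 1.69 CPM in myrBRX, against 556 and 11.6 CPM in the libraries labelled BRX; BRX 1 alone set the size of its fold change. XTH9, a xyloglucan-modifying enzyme of the wall, had 5.09 and 5.08 CPM in myrBRX, against 69.4 and 76.5 CPM in the libraries labelled BRX (log2 fold change -3.84 ± 0.85). CSLD5, a cellulose synthase-like protein of the forming cell plate, had 26.4 and 20.4 CPM in myrBRX, against 284 and 380.1 CPM in the libraries labelled BRX (log2 fold change -3.83 ± 0.88). The libraries of a line lay close together for both of these wall genes. NAT12, a nucleobase-ascorbate transporter family member, had 1.81 and 2.55 CPM in myrBRX, against 77.5 and 24.8 CPM in the libraries labelled BRX. FLP, the MYB factor that stops guard mother cells from dividing again, had 9.87 and 9.56 CPM in myrBRX, against 157 and 86.4 CPM in the libraries labelled BRX (log2 fold change -3.65 ± 0.83). The 12 lower genes of lowest p had adjusted p-values of 0.129 to 0.202, and the 12 higher genes 0.161 to 0.202.

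**Figure D3:**
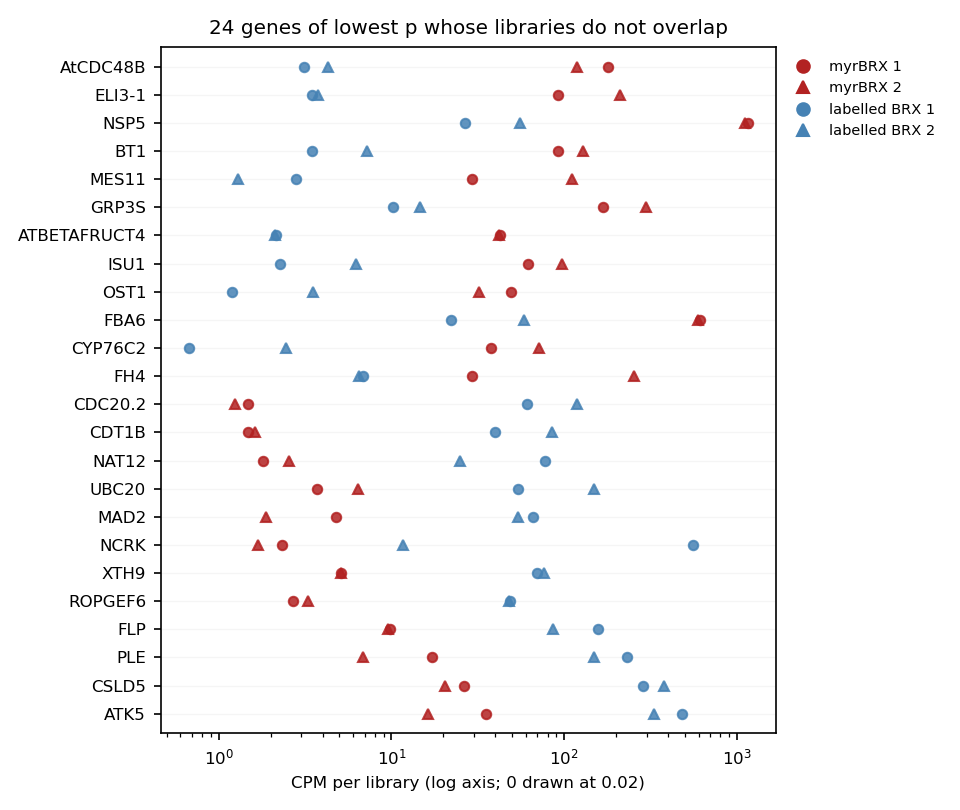
CPM in each of the 4 libraries for the 12 higher and 12 lower genes of lowest p, on a log axis. Circles are library 1 and triangles library 2, red for myrBRX and blue for the libraries labelled BRX; the lines do not overlap in any row, as the rule required, and NCRK and FH4 have the widest spread within a line.

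The genes on the G2/M, heat shock and glutathione S-transferase lists are summed up here only. The division genes named above were not on the G2/M list, so leaving that list out did not leave out all genes of division. Both myrBRX libraries lay below both libraries labelled BRX in 18 of 19 G2/M genes, with a median log2 fold change of -3.43. They lay above in 7 of 9 heat shock genes (median 3.09) and 18 of 29 transferase genes (median 1.85). BRX 2 was above BRX 1 in 6 of those 7 and 16 of those 18, and below BRX 1 in 13 of the 18 G2/M genes.

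Detoxification genes other than the transferases stood above in myrBRX more often than those of any other list in the plot of list shares. Plants meet electrophilic and foreign compounds by reducing, oxidising, glycosylating and exporting them. Both myrBRX libraries lay above both libraries labelled BRX in 15 of 16 genes of this list and below in none, against 26.7% and 22.4% over all loci, and the median log2 fold change was 2.91. In 14 of those 15 genes BRX 2 was above BRX 1, and the summed level was 10048 and 17521 CPM in myrBRX, against 1126 and 4893 CPM in the libraries labelled BRX. DTX1, an efflux carrier on the list, had 0 counts in all 6 libraries, and ABCC3, a vacuolar transporter of conjugates, overlapped at 13.4 and 23.5 CPM against 16.6 and 3.31 CPM.

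AER, an alkenal reductase, had 309 and 894 CPM in myrBRX, against 1.31 and 61.2 CPM in the libraries labelled BRX (log2 fold change 4.27 ± 1.43). OPR1, an oxophytodienoate reductase family member, had 3333 and 5958 CPM in myrBRX, against 298 and 1841 CPM in the libraries labelled BRX (log2 fold change 2.12 ± 1.24); OPR1 and OPR2 are close copies. For both genes BRX 2 lay between BRX 1 and myrBRX. Of the oxidising enzymes, CYP81D8 had 1151 and 1312 CPM in myrBRX, against 16.6 and 152 CPM in the libraries labelled BRX, and CYP81D11 had 132 and 71.4 CPM in myrBRX, against 2.53 and 10.8 CPM in the libraries labelled BRX (log2 fold changes 3.87 ± 1.19 and 3.93 ± 1.00). Neither gene overlapped between the lines, which for CYP81D11 was a condition of being named. UGT73B5, which adds glucose to small molecules, had 686 and 958 CPM in myrBRX, against 25.3 and 145 CPM in the libraries labelled BRX. Its relative UGT73B4 had 54.8 and 97.2 CPM in myrBRX, against 8.24 and 9.42 CPM in the libraries labelled BRX. UGT74E2, which glycosylates the auxin indole-3-butyric acid, had 53.7 and 75.9 CPM in myrBRX, against 8.64 and 5.82 CPM in the libraries labelled BRX. ABCG40, a plasma membrane exporter family member that also imports abscisic acid, had 1249 and 2913 CPM in myrBRX, against 34.5 and 401 CPM in the libraries labelled BRX (log2 fold change 3.26 ± 1.24). BRX 1 and BRX 2 lay far apart for UGT73B5 and ABCG40 and close together for UGT73B4 and UGT74E2.

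The wider enzyme families were less one-sided. Of the tested UDP-glycosyltransferases, those above included, 26 of 42 lay above and 1 below (median log2 fold change 1.95). The exception was UGT71C3, at 0.692 and 0.313 CPM in myrBRX, against 3.2 and 8.3 CPM in the libraries labelled BRX. UGT73B2 was higher, at 132 and 233 CPM in myrBRX, against 17.5 and 28.1 CPM in the libraries labelled BRX. Of the cytochromes P450, 32 of 95 lay above and 11 below (median 0.54), which is near the background above and under it below. CYP72C1, which inactivates brassinosteroids, had 19.1 and 17.4 CPM in myrBRX, against 1.04 and 0.628 CPM in the libraries labelled BRX. CYP51G1, the sterol 14-demethylase, had 14.5 and 13.8 CPM in myrBRX, against 2342 and 34.5 CPM in the libraries labelled BRX, and BRX 1 set the size of its difference. The ABC transporters stood at 22 of 94 above and 19 below, near the background on both sides. A pair of exporters went the other way: ABCB19, an auxin efflux transporter, had 21.1 and 29.3 CPM in myrBRX, against 147 and 116 CPM in the libraries labelled BRX, and ABCG32, an exporter of cuticle precursors, had 78 and 64.1 CPM in myrBRX, against 283 and 237 CPM in the libraries labelled BRX.

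**Figure D4:**
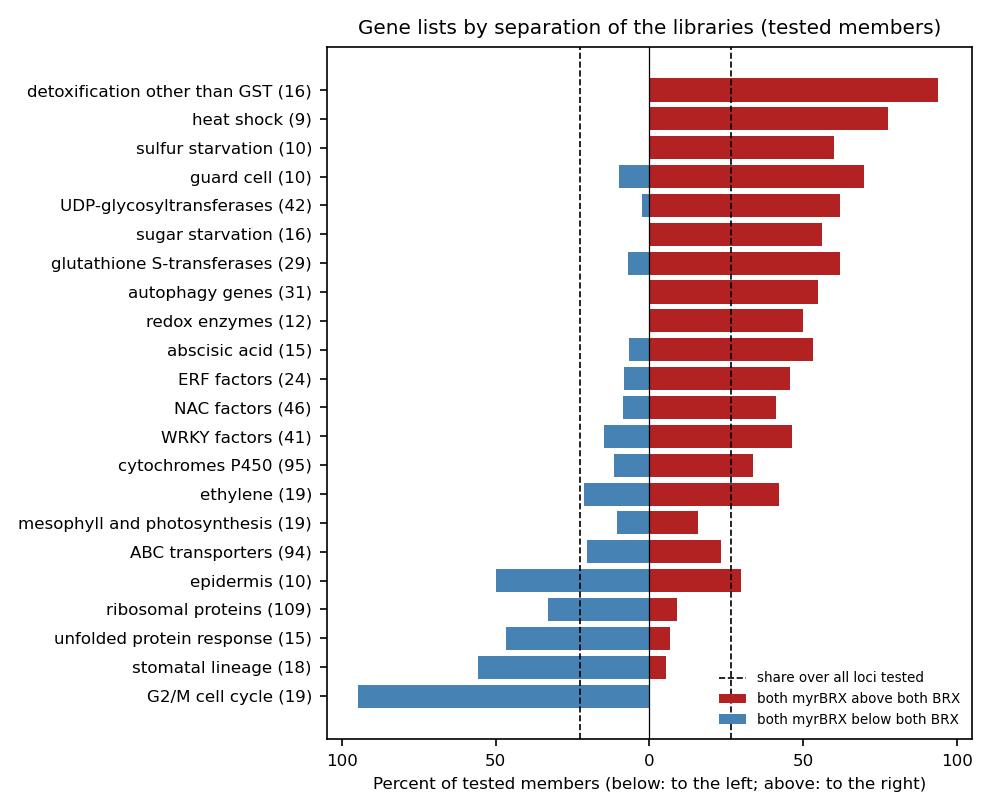
Percent of the tested members in which both myrBRX libraries lay above (red, to the right) or below (blue, to the left) both libraries labelled BRX. Only gene lists chosen for the plot are drawn, and other lists are left out. The number tested is in parentheses. Dashed lines mark the shares over all 18174 loci, 26.7% above and 22.4% below; detoxification genes reach 93.8% above and G2/M genes 94.7% below.

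In the WRKY, NAC and ERF families of transcription factors, more members lay above in myrBRX than below; members above made up fewer than the rest of each family. Of the WRKY factors, which respond to pathogens and ageing, 19 of 41 lay above and 6 below (median log2 fold change 1.04). WRKY75, which promotes leaf senescence, had 44.4 and 41.7 CPM in myrBRX, against 0.854 and 3.97 CPM in the libraries labelled BRX (log2 fold change 4.16 ± 1.12). WRKY25 had 54 and 54.2 CPM in myrBRX, against 1.07 and 8.46 CPM in the libraries labelled BRX, and WRKY8 had 30.7 and 18.4 CPM in myrBRX, against 0.427 and 1.79 CPM in the libraries labelled BRX. WRKY53, another senescence regulator, went the other way at 3.91 and 5.39 CPM in myrBRX, against 8.76 and 19.4 CPM in the libraries labelled BRX.

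Of the NAC factors, 19 of 46 lay above and 4 below (median 0.96). NAC3, also called ANAC055, which acts in jasmonate and drought responses, had 410.2 and 435 CPM in myrBRX, against 8.0 and 44.2 CPM in the libraries labelled BRX (log2 fold change 4.02 ± 1.02). ANAC087, linked to programmed cell death in the root cap, had 14.4 and 14 CPM in myrBRX, against 0 and 0.231 CPM in the libraries labelled BRX. NAC017, the membrane-bound regulator of the mitochondrial stress response, lay below at 34.8 and 38.9 CPM in myrBRX, against 78.6 and 53.8 CPM in the libraries labelled BRX, while NAC13, a factor of the same response, lay above at 55.6 and 40.9 CPM in myrBRX, against 11.6 and 10.6 CPM in the libraries labelled BRX. AOX1A, the alternative oxidase commonly used to report that response, had 66.8 and 72.7 CPM in myrBRX, against 6.5 and 18.7 CPM in the libraries labelled BRX. Of the 7 tested genes of the mitochondrial stress list, 5 lay above and 1 below.

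The ERF list had 11 of 24 above and 2 below (median 1.23). ERF38 had 14.2 and 6.82 CPM in myrBRX, against 0.0305 and 0.0331 CPM in the libraries labelled BRX; the libraries labelled BRX held 1 count each, and the ratio was 323-fold (95% counting interval 89.5 to 2670.0). ERF6, a quick responder to stress, lay below at 29 and 15.2 CPM in myrBRX, against 700.1 and 46.1 CPM in the libraries labelled BRX. The MYB list, at 17 of 51 above and 9 below, was nearer the background. MYB32 had 23 and 43.5 CPM in myrBRX, against 2.75 and 2.15 CPM in the libraries labelled BRX, and MYB74 had 118 and 43 CPM in myrBRX, against 9.4 and 3.34 CPM in the libraries labelled BRX. MYB109 had 83.7 and 4533 CPM in myrBRX, against 21.6 and 36.4 CPM in the libraries labelled BRX, so that its log2 fold change of 6.32 ± 1.64 came mostly from myrBRX 2. MYB16, which promotes cuticle formation, lay below at 7.58 and 4.01 CPM in myrBRX, against 40.8 and 38.6 CPM in the libraries labelled BRX.

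Genes of recycling and starvation came next. In autophagy, proteins of the ATG series enclose parts of the cytoplasm and deliver them to the vacuole. Both myrBRX libraries lay above in 17 of 31 ATG genes and below in none (median log2 fold change 1.20), and BRX 2 was above BRX 1 in 15 of the 17. ATG8H, one of the ubiquitin-like proteins that coat the autophagosome, had 65.2 and 119 CPM in myrBRX, against 0.305 and 12.7 CPM in the libraries labelled BRX. ATG8E had 63.8 and 162 CPM in myrBRX, against 11.9 and 24.5 CPM in the libraries labelled BRX. ATG7 (listed as APG7), the enzyme that activates ATG8, had 25.6 and 27.7 CPM in myrBRX, against 2.59 and 7.17 CPM in the libraries labelled BRX (log2 fold change 2.45 ± 0.96). BRX 1 was the lowest of the compared libraries for all 3 genes.

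Of the sugar starvation genes, 9 of 16 lay above and none below (median 1.46), and BRX 2 was above BRX 1 in all 9. ASN1, the asparagine synthetase induced in darkness, had 512 and 411 CPM in myrBRX, against 10.6 and 140.1 CPM in the libraries labelled BRX. SEN1, a dark-induced gene, had 9.63 and 37.4 CPM in myrBRX, against 0 and 0.397 CPM in the libraries labelled BRX, and DIN2, a beta-glucosidase, had 30.9 and 19.8 CPM in myrBRX, against 0 and 2.12 CPM in the libraries labelled BRX. BRX 1 held no count of either. DIN10 had 628 and 506 CPM in myrBRX, against 72.1 and 216 CPM in the libraries labelled BRX. TPS10, of the trehalose phosphate synthase family, had 86.8 and 101 CPM in myrBRX, against 6.9 and 40.2 CPM in the libraries labelled BRX. BCE2, a subunit of the enzyme that degrades branched-chain keto acids, overlapped at 25 and 40.6 CPM against 29.1 and 48 CPM, with a sign that turned without BRX 2 or without myrBRX 1, so the list did not move as a block.

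Nitrogen assimilation genes were close to the background, with 4 of 12 above and 1 below. BRX 2 was above BRX 1 in all 4. GDH2, a glutamate dehydrogenase of that list that frees ammonium from glutamate, had 3408 and 9267 CPM in myrBRX, against 131 and 1796 CPM in the libraries labelled BRX (log2 fold change 2.72 ± 1.34).

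In the senescence list 6 of 10 lay above and 1 below. SAG21, a small mitochondrial protein induced by stress and ageing, had 108 and 327 CPM in myrBRX, against 4.67 and 35.2 CPM in the libraries labelled BRX. WRKY6 had 710.0 and 664 CPM in myrBRX, against 206 and 143 CPM in the libraries labelled BRX, and NYC1, which begins chlorophyll b breakdown, had 23.7 and 38.5 CPM in myrBRX, against 4.73 and 9.36 CPM in the libraries labelled BRX. SAG12, the protease most used to mark late senescence, had 0 counts in all 6 libraries.

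The sulphur starvation list had 6 of 10 above and none below (median 1.88). APR2, the adenosine phosphosulphate reductase of sulphate assimilation, had 1795 and 991 CPM in myrBRX, against 232 and 362 CPM in the libraries labelled BRX, and its relative APR3 had 7559 and 4099.9 CPM in myrBRX, against 261 and 1529.6 CPM in the libraries labelled BRX. SULTR1;2, a sulphate importer, had 6.74 and 12.9 CPM in myrBRX, against 0.0915 and 0.562 CPM in the libraries labelled BRX. LSU1, a marker of low sulphur, had 6.2 and 8.85 CPM in myrBRX, against 0 and 0 CPM in the libraries labelled BRX, at least 78.9-fold higher against a floor of 3 counts per library. In the BRXL2 line LSU1 had 0.0425 and 29.6 CPM, so its libraries spanned the whole range. The iron and copper list was near the background, with 4 of 13 above and 2 below (median 0.30). The genes below were PYE, a regulator of the iron deficiency response, at 12.8 and 5.44 CPM in myrBRX, against 20.6 and 30.0 CPM in the libraries labelled BRX, and NAS4, a nicotianamine synthase, at 1.53 and 0.573 CPM in myrBRX, against 2.78 and 3.37 CPM in the libraries labelled BRX. Among those above, MT2A, a metallothionein, had 359 and 561 CPM in myrBRX, against 14.8 and 77.1 CPM in the libraries labelled BRX. CSD1, a copper-zinc superoxide dismutase, had 22.5 and 68.5 CPM in myrBRX, against 9.8 and 6.32 CPM in the libraries labelled BRX. FER1, the iron store ferritin, had 65.5 and 217 CPM in myrBRX, against 16.3 and 53.1 CPM in the libraries labelled BRX, where myrBRX 1 and BRX 2 lay close together. The redox list had 6 of 12 above and none below. TRX5, the thioredoxin also called TRXh5, had 17.2 and 40.9 CPM in myrBRX, against 0.458 and 0.265 CPM in the libraries labelled BRX, a log2 fold change of 6.31 ± 1.34. DHAR2, which regenerates ascorbate, had 24 and 43.6 CPM in myrBRX, against 1.19 and 12.4 CPM in the libraries labelled BRX. The catalases overlapped, CAT1 at 26.7 and 39.8 CPM against 60.5 and 27.1 CPM and CAT2 at 33.2 and 24 CPM against 21.6 and 58.2 CPM; their signs turned without BRX 1 and without BRX 2, in that order.

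Regulators of the stomatal lineage were mostly lower in myrBRX: both libraries lay below in 10 of 18 genes of the list and above in 1, with a median log2 fold change of -1.54. The summed level was 841 and 535 CPM in myrBRX, against 3245 and 1476 CPM in the libraries labelled BRX, and BRX 2 was the lower of the libraries labelled BRX in 8 of the 10. In sorted populations, fewer cells of a type and less RNA per cell cannot be told apart.

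The 3 master factors overlapped. SPCH had 73 and 28.8 CPM in myrBRX, against 241 and 57.2 CPM in the libraries labelled BRX (log2 fold change -1.55 ± 1.02, adjusted p = 0.49), with only BRX 1 apart. MUTE had 0.0903 and 0.0521 CPM in myrBRX, against 0.763 and 0 CPM in the libraries labelled BRX, which is a handful of counts. FAMA (listed as FMA) had 18.5 and 14.5 CPM in myrBRX, against 14.6 and 13.9 CPM in the libraries labelled BRX (log2 fold change 0.21 ± 0.85). Their partner SCRM2 had 21.3 and 14.6 CPM in myrBRX, against 496 and 54.9 CPM in the libraries labelled BRX (log2 fold change -3.94 ± 1.08). The other partner, ICE1, had 236 and 154 CPM in myrBRX, against 544 and 245 CPM in the libraries labelled BRX, where the lines only just failed to meet. The polarity genes BASL and POLAR (AT4G31805) also overlapped: BASL had 8.58 and 14 CPM in myrBRX, against 57.4 and 8.1 CPM in the libraries labelled BRX, and POLAR had 163 and 50.2 CPM in myrBRX, against 741 and 88.3 CPM in the libraries labelled BRX. BRX 1 was the highest of the 4 libraries for both, and BRX 2 was not above myrBRX 1. Without BRX 1 the log2 fold changes of MUTE, BASL and POLAR turned positive, at 4.47, 0.49 and 0.27.

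The receptors were lower. ER, the ERECTA receptor kinase, had 53.9 and 39.6 CPM in myrBRX, against 246 and 283 CPM in the libraries labelled BRX (log2 fold change -2.50 ± 0.80), and its relative ERL2 had 68.1 and 37 CPM in myrBRX, against 323 and 180.0 CPM in the libraries labelled BRX. TMM, the receptor-like partner of the ERECTA family, had 129.6 and 98.6 CPM in myrBRX, against 186 and 322 CPM in the libraries labelled BRX (log2 fold change -1.15 ± 0.80, adjusted p = 0.513). The distance between the lines was wide for ER and narrow for TMM. YDA, the kinase that relays their signal, had 22.1 and 18.4 CPM in myrBRX, against 60.3 and 34.8 CPM in the libraries labelled BRX. SDD1, a subtilisin-like protease that keeps stomatal density down, had 10.7 and 12.2 CPM in myrBRX, against 88.2 and 35.3 CPM in the libraries labelled BRX. MYB88, the relative of FLP, had 0.481 and 1.72 CPM in myrBRX, against 11.8 and 6.68 CPM in the libraries labelled BRX. The ligand EPF1, which restrains division next to a stomatal precursor, was the 1 gene above, at 1.26 and 2.29 CPM in myrBRX, against 0.61 and 0.198 CPM in the libraries labelled BRX.

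Guard cell genes mostly stood higher in myrBRX: 7 of 10 lay above and 1 below, and the summed level was 960.4 and 443 CPM in myrBRX, against 99.4 and 144 CPM in the libraries labelled BRX. TGG1, a myrosinase that is very abundant in guard cells, held most of these counts, at 891 and 385 CPM in myrBRX, against 82.5 and 115 CPM in the libraries labelled BRX (log2 fold change 2.70 ± 1.02). Its close copy TGG2 was the 1 gene below, at 0.0301 and 0.0781 CPM in myrBRX, against 3.57 and 5.32 CPM in the libraries labelled BRX, and reads may be shared between the copies. Beside OST1, the ion channel KAT2 had 0.933 and 6.69 CPM in myrBRX, against 0 and 0.0992 CPM in the libraries labelled BRX, and the factor MYB60 had 4.97 and 7.45 CPM in myrBRX, against 2.17 and 2.38 CPM in the libraries labelled BRX. SCAP1 (AT5G65590), a Dof factor of guard cell maturation, had 1.05 and 2.66 CPM in myrBRX, against 0 and 0 CPM in the libraries labelled BRX, at least 19.4-fold higher. The anion channel SLAC1 overlapped at 10.3 and 8.57 CPM against 7.11 and 17.8 CPM, and its sign turned without BRX 2. MYB61 and the channel GORK had 0 counts in all 6 libraries.

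Epidermal genes split, with 3 of 10 above and 5 below. BRX 2 was the lower of the libraries labelled BRX in all 5 of those below. The identity factor ATML1 had 107 and 132 CPM in myrBRX, against 106 and 95.8 CPM in the libraries labelled BRX (log2 fold change 0.24 ± 0.74), close to equal, while its partner PDF2 had 66.8 and 81.5 CPM in myrBRX, against 649 and 157 CPM in the libraries labelled BRX. PDF1, an outer cell layer protein, had 144 and 90.5 CPM in myrBRX, against 2929 and 584 CPM in the libraries labelled BRX (log2 fold change -3.90 ± 1.13). Wax and cutin genes went both ways. KCS6, also called CUT1, which elongates fatty acids for wax, had 146 and 1384 CPM in myrBRX, against 33.7 and 72.7 CPM in the libraries labelled BRX, and the lipid transfer protein LP1, also called LTP1, had 64.5 and 861 CPM in myrBRX, against 18.4 and 29.6 CPM in the libraries labelled BRX. KCS10, also called FDH, had 228 and 461 CPM in myrBRX, against 2509 and 921 CPM in the libraries labelled BRX, and LACS2, a cutin acyl-CoA synthetase, had 42.1 and 33.4 CPM in myrBRX, against 200.4 and 82.4 CPM in the libraries labelled BRX. For KCS6 and LP1 myrBRX 2 was far above myrBRX 1.

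**Figure D5:**
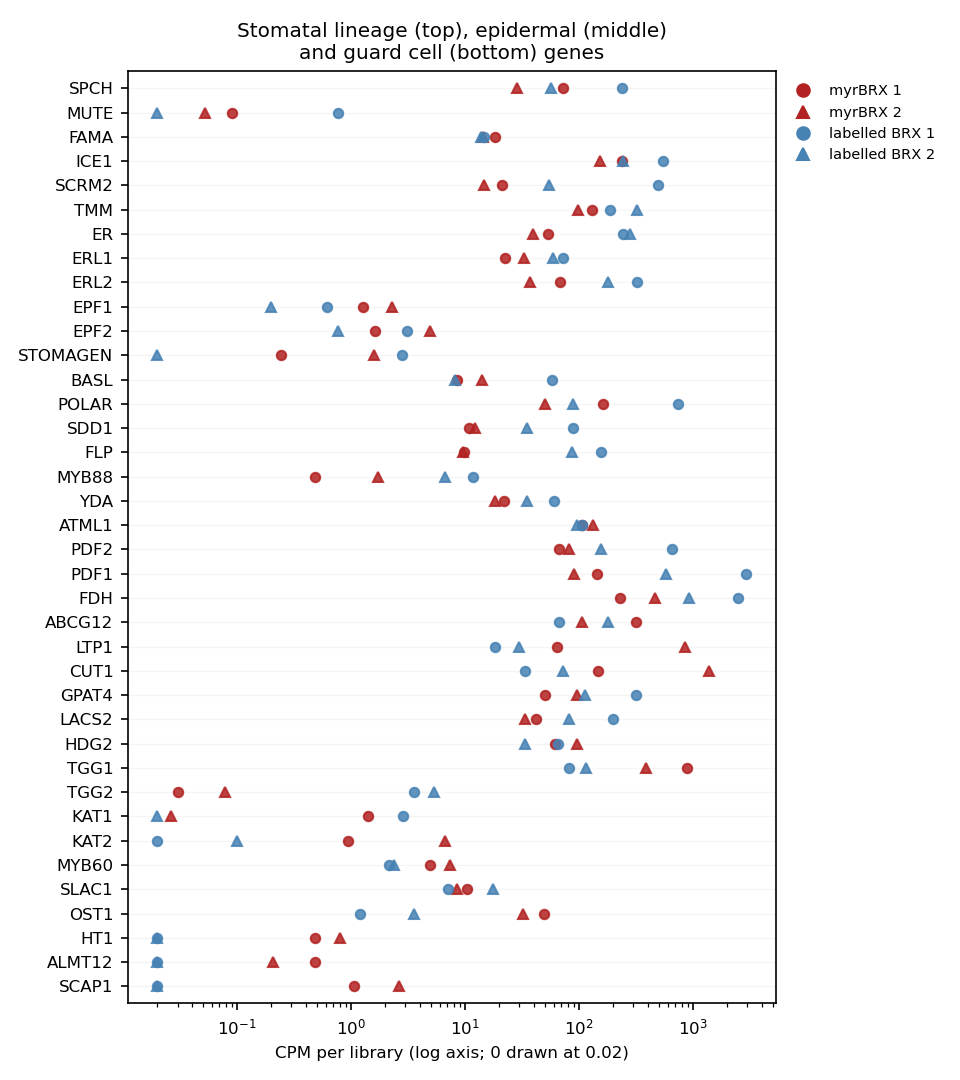
CPM in each of the 4 libraries for the tested members of the stomatal lineage (top 18), epidermal (next 10) and guard cell (bottom 10) lists, on a log axis with 0 drawn at 0.02. In 10 of the 18 lineage genes both red (myrBRX) points lie left of both blue points, and in 7 of the 10 guard cell genes they lie right of them.

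Markers of other cells were weak or did not move together. The mesophyll and photosynthesis list had 3 of 19 above and 2 below (median log2 fold change -0.14), both under the background, and its summed level was 627 and 763 CPM in myrBRX, against 1233 and 646 CPM in the libraries labelled BRX. The small subunit genes of Rubisco, which are close copies, disagreed: RBCS1A had 174 and 198 CPM in myrBRX, against 849 and 319 CPM in the libraries labelled BRX, and RBCS2B had 172 and 183 CPM in myrBRX, against 1.34 and 34.2 CPM in the libraries labelled BRX. The phloem list had 1 above and 1 below of 11 tested, and summed to 49.6 and 28.6 CPM in myrBRX, against 43.9 and 15.4 CPM in the libraries labelled BRX. The 1 above was APL, the phloem identity factor, by 1 count in each myrBRX library. It had 0.0301 and 0.026 CPM in myrBRX, against 0 and 0 CPM in the libraries labelled BRX, while the BRXL2 line held 62.2 and 63.9 CPM. In the xylem list none of 8 lay above and 1 below. That gene was XCP2, a xylem protease, at 1.02 and 0.156 CPM in myrBRX, against 34.2 and 1.02 CPM in the libraries labelled BRX. Its levels in myrBRX 1 and BRX 2 were nearly equal (34 and 31 counts). VND6 and VND7, the switches of vessel formation, had 0 counts in all 6 libraries. The trichome list summed to 0.572 and 0.0781 CPM in myrBRX, against 0.671 and 2.74 CPM in the libraries labelled BRX, with TRY at 0 throughout. Of the meristem genes, WUS, CLV3 and CUC2 had 0 counts in all 6 libraries, and only ANT, a factor that keeps organ cells dividing, was plainly present, at 5.09 and 2.03 CPM in myrBRX, against 84.4 and 9.49 CPM in the libraries labelled BRX. The part of these cells in the differences above was not tested.

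Ribosomal protein genes were lower in myrBRX more often than higher. They lay below in 36 of 109 and above in 10 (median log2 fold change -0.80), against 22.4% and 26.7% over all loci. BRX 2 was the lower of the libraries labelled BRX in 29 of those 36. The summed level was 1939 and 4106 CPM in myrBRX, against 8444 and 4052 CPM in the libraries labelled BRX, so that myrBRX 2 and BRX 2 were nearly equal, with myrBRX 1 below them and BRX 1 above. The member of lowest p, AT3G53870, a small subunit protein, had 70.0 and 107 CPM in myrBRX, against 1539.6 and 232 CPM in the libraries labelled BRX. Families named by their product were counted where at least 20 loci were tested, and those given were chosen after their values were seen. Of 176 pentatricopeptide repeat proteins, most of which process organelle RNA, 55 lay below and 16 above (median -0.98). Of 80 leucine-rich repeat protein kinases, 35 lay below and 11 above (median -1.40). Of 178 RING/U-box proteins, in contrast, 73 lay above and 26 below. Chloroplast loci lay below at 68 of 92 (median -1.78) and mitochondrial loci at 18 of 49.

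The unfolded protein response list, which holds chaperones of the endoplasmic reticulum, had 7 of 15 below and 1 above (median -0.95). BRX 2 was the lower of the libraries labelled BRX in 6 of the 7. The heat shock list, in contrast, stood higher in myrBRX. SHD, the reticulum's HSP90, had 79.2 and 115 CPM in myrBRX, against 392 and 332 CPM in the libraries labelled BRX (log2 fold change -1.90 ± 0.83), and the lines were well apart. CRT1a, a calreticulin, had 32.9 and 75.5 CPM in myrBRX, against 253 and 105 CPM in the libraries labelled BRX. BIP3, an inducible binding protein, had 1.96 and 0.208 CPM in myrBRX, against 15.9 and 7.6 CPM in the libraries labelled BRX. The 1 gene above was BZIP28, a transcription factor that activates the response, at 297 and 363 CPM in myrBRX, against 109 and 216 CPM in the libraries labelled BRX.

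Hormone genes gave mixed pictures. In the abscisic acid list 8 of 15 lay above and 1 below. BRX 2 was above BRX 1 in 7 of the 8. Phosphatases that restrain the signal were among those above: ABI1 had 886 and 795 CPM in myrBRX, against 88.6 and 305 CPM in the libraries labelled BRX, and HAB1 had 177 and 179 CPM in myrBRX, against 11.3 and 90.5 CPM in the libraries labelled BRX. The receptor RCAR1, also called PYL9, had 15.6 and 16.4 CPM in myrBRX, against 1.89 and 3.7 CPM in the libraries labelled BRX, and the cold- and drought-induced COR47 had 171 and 294 CPM in myrBRX, against 39.8 and 78 CPM in the libraries labelled BRX. In each of these 4 genes BRX 2 lay between BRX 1 and myrBRX. HB-12, an induced homeodomain factor, lay below at 3.91 and 1.9 CPM in myrBRX, against 16.7 and 9.16 CPM in the libraries labelled BRX. RD29A, a widely used reporter gene of the response, overlapped at 70.0 and 146 CPM against 32.5 and 228 CPM, and its sign turned without BRX 2 or without myrBRX 1.

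In the ethylene list 8 of 19 lay above and 4 below. ACS6, which makes the precursor of ethylene, had 176 and 95.3 CPM in myrBRX, against 990.2 and 707 CPM in the libraries labelled BRX. Another enzyme of the same step, ACS2, had 4.06 and 3.49 CPM in myrBRX, against 1.1 and 0.0661 CPM in the libraries labelled BRX, so the step had members on both sides. ERF2 had 452 and 363 CPM in myrBRX, against 18.8 and 143 CPM in the libraries labelled BRX. Of the gibberellin genes, 3 of 12 lay above and 2 below. GA2OX6, which inactivates gibberellins, had 201 and 618 CPM in myrBRX, against 4.49 and 59.7 CPM in the libraries labelled BRX (log2 fold change 3.67 ± 1.36), and GASA4, a gibberellin-induced peptide, had 14.3 and 7.66 CPM in myrBRX, against 54.2 and 39.3 CPM in the libraries labelled BRX. The list of rapid stress and wound genes had 6 of 13 above and 3 below. MYC2, the central factor of the jasmonate response, lay below at 300.3 and 166 CPM in myrBRX, against 1516 and 1332 CPM in the libraries labelled BRX (log2 fold change -2.61 ± 0.95), with BRX 1 and BRX 2 close together. The jasmonate synthesis gene AOS had 329 and 583 CPM in myrBRX, against 48.8 and 236 CPM in the libraries labelled BRX. JAZ1, a repressor of MYC2, overlapped at 1003 and 1348 CPM against 319.7 and 2683 CPM, and its sign turned without BRX 2. CML38, a calcium sensor of wounding, had 54.4 and 62.9 CPM in myrBRX, against 7.93 and 23.4 CPM in the libraries labelled BRX. HK2, a cytokinin receptor chosen after its values were seen, had 0.782 and 0.911 CPM in myrBRX, against 19 and 31.4 CPM in the libraries labelled BRX, a log2 fold change of -4.89 ± 1.10.

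Wall and water transport families had members on both sides, with more above than below in each family given here. The xyloglucan endotransglucosylases had 7 of 20 above and 5 below; EXGT-A3 had 82.2 and 76.8 CPM in myrBRX, against 18 and 22.5 CPM in the libraries labelled BRX, the opposite of XTH9. The pectin methylesterases and their inhibitors had 14 of 40 above and 6 below. PME3 was among the 6 below, at 0.241 and 0.208 CPM in myrBRX, against 12.5 and 1.09 CPM in the libraries labelled BRX. BRX 1 set the size of its difference. Of the peroxidases, 6 of 14 lay above and 3 below. AT3G17070, given with the extremes below, was among those above. PRXR1 was among the 3 below, at 19.5 and 43.1 CPM in myrBRX, against 416 and 256 CPM in the libraries labelled BRX (log2 fold change -3.43 ± 0.88). Aquaporins had 10 of 22 above and 4 below, and PIP1C and PIP3 were among the 4. PIP1C, of the plasma membrane, had 12.3 and 12.7 CPM in myrBRX, against 23.7 and 98 CPM in the libraries labelled BRX. PIP3, of the same membrane, had 43.5 and 91.6 CPM in myrBRX, against 151 and 152 CPM in the libraries labelled BRX. DELTA-TIP, of the vacuole membrane, had 7.73 and 26.8 CPM in myrBRX, against 1.86 and 1.69 CPM in the libraries labelled BRX. Of the beta-glucosidases, 10 of 23 lay above and 1 below, and BGLU10 had 70.9 and 53.4 CPM in myrBRX, against 2.35 and 10.5 CPM in the libraries labelled BRX. The lines did not overlap in these genes, but members named by lowest p in a list were taken only from those without overlap.

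The extremes of the comparison, chosen after their values were seen, were mostly loci near absence in 1 line. The lowest p of all belonged to AT3G20395, a RING/U-box protein, at 0.0903 and 0.286 CPM in myrBRX, against 118 and 209 CPM in the libraries labelled BRX (log2 fold change -9.72 ± 1.25, adjusted p = 0.093). Its level in the BRXL2 line was 1.4 and 0.428 CPM, so of the 6 libraries those labelled BRX alone held it above 2 CPM. AT1G63100, a GRAS family transcription factor, had 4.88 and 2.94 CPM in myrBRX, against 164 and 185 CPM in the libraries labelled BRX (log2 fold change -5.48 ± 0.89, adjusted p = 0.129). AT1G26650, of unknown function, had 0.391 and 0.365 CPM in myrBRX, against 101 and 9.69 CPM in the libraries labelled BRX. On the other side, AT4G15610, a small membrane protein, had 36.9 and 147 CPM in myrBRX, against 0 and 0.0992 CPM in the libraries labelled BRX; the libraries labelled BRX held 3 counts in all, and the ratio was 2015-fold (95% counting interval 689.6 to 9772). JRG21, an oxygenase induced by jasmonate, had 32.4 and 44 CPM in myrBRX, against 0 and 0.0661 CPM in the libraries labelled BRX, a ratio of 1216-fold (95% counting interval 337 to 10040.0). AT3G17070, a peroxidase, had 18.5 and 16.2 CPM in myrBRX, against 0 and 0 CPM in the libraries labelled BRX, at least 182-fold higher. CT-BMY, a chloroplast beta-amylase that breaks down starch, had 38 and 146 CPM in myrBRX, against 0.58 and 0.959 CPM in the libraries labelled BRX (log2 fold change 6.90 ± 1.08). PCAP1, a calcium-binding protein of the plasma membrane, had 18.2 and 198 CPM in myrBRX, against 0.549 and 0.397 CPM in the libraries labelled BRX, with myrBRX 2 well above myrBRX 1. In each of these genes both libraries of a line were on the same side, and none passed the adjusted test.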

How the data were processed

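Counts of RNA from sorted cells were analysed, 2 libraries per line in 3 lines, grouped by title. The values are raw counts per locus, as deposited, with no normalisation; per the labels' protocols, 20 ng of total RNA per sample was amplified before sequencing. Bowtie2 and TAIR10 are named in the submitters' processing notes. The annotation release, the counter, strand use and the treatment of reads with several matches are not given in the sources used here, so close copies and antisense transcripts may share counts. Names came from a TAIR10.1 annotation, which matched 32835 of 33602 loci; no coordinates or sequences were taken from it, since the builds differ.

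Loci were filtered with edgeR 4.0.16 (filterByExpr, minimum count 10; 18174 left) under R 4.3.3, scaled by TMM and fitted with a quasi-likelihood model (glmQLFit and glmQLFTest) with 1 coefficient per line over all 6 libraries, leaving 3 residual degrees of freedom. The contrast was myrBRX minus BRX, two-sided, with Benjamini-Hochberg adjustment over all loci tested and a threshold of 0.05. The fit found a common dispersion of 0.781 (biological coefficient of variation 0.884). Log2 fold changes carry an SE worked back from the test, as their size over the square root of the quasi-likelihood F statistic. DESeq2 1.42.0 and limma 3.58.1 were alternatives, with other scalings, filters and libraries left out. The 2 libraries of a line were not copies, at a chi-square per locus of 640 in myrBRX and 864 in BRX; nothing says that they came from separate plants, so p-values measure the spread between these samples only, which may be technical. Intervals (95%, exact Poisson) and floors (3 counts per library) cover counting error only.

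Named genes were the 12 of lowest p in each direction under the conditions given in the text, those of widest gap, up to 3 members of lowest p per list and direction, and always the BRX family, SPCH, MUTE, FAMA, TMM, BASL and POLAR; some of the gap and list members are left out, and any other gene was chosen after its values were seen. The comparison, the lists and the rule were chosen with earlier results of these data known. Of 414 list entries, 406 matched 1 locus.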

Additional observations from a re-analysis of the deposited data

How the results depend on the processing

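The count of loci past the adjusted threshold depended on the tool and on single libraries. It was 0 higher and 0 lower with RLE or upper-quartile scaling, a stricter filter (50 counts), limma-voom, the 4 compared libraries alone, and without organelle loci and AT1G79245; limma-voom gave 2561 loci at an unadjusted p under 0.05 and the 4 libraries alone 2581. It was 372 higher and 352 lower with no filter, 745 and 748 with DESeq2, and 1 and 1 with the newer edgeR fit (AT4G15610 and AT3G20395). With the replicate number as a block it was 18 and 11; the labels give the number no meaning, same-numbered libraries of the 2 lines deviated together at a correlation of 0.065, and the fit is not taken as paired. Leaving out 1 library of the 6 gave 0 to 149 higher and 1 to 178 lower. The largest counts came without BRX 2 (149 and 178), against 0 and 1 without BRX 1, 41 and 7 without myrBRX 1, 19 and 3 without myrBRX 2, 17 and 10 without BRXL2 1, and 42 and 25 without BRXL2 2; where a line was left with 1 library, that library was assumed to vary like the others. By position, 7561 loci lay above and 6972 below without BRX 1, and 8285 and 7387 without BRX 2, since 1 library is easier to clear than 2; leaving out each compared library in turn spanned 7086 to 8285 above and 5486 to 7387 below.

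Of 166 genes named with values, over 16 alternatives, 23 of 2653 values reversed, in 14 genes, none of which separated the lines. With limma-voom the log2 fold change was -1.0 for BRXL1, 0.32 for JAZ1, 0.23 for RD29A and 1.8 for TT4. With the block it was -0.61 for BRXL1, 0.44 for JAZ1 and 0.06 for RD29A. With 1 library left out it ran from -3.21 to 1.28 for BRXL1, -3.37 to 4.47 for MUTE, -2.34 to 0.49 for BASL, -3.04 to 0.27 for POLAR (AT4G31805), -0.86 to 0.30 for CAT1, -1.02 to 0.41 for CAT2, -4.94 to 1.45 for CYP707A3, -6.60 to 2.58 for FLS1, -2.68 to 6.47 for TT4, -5.62 to 2.21 for UGT78D1, -0.61 to 0.18 for BCE2, -1.19 to 1.89 for JAZ1, -1.08 to 1.74 for RD29A and -0.91 to 0.42 for SLAC1. In 264 values a gene went past the threshold, and of 815 list medians 109 moved. The median log2 fold change stayed between 2.43 and 4.52 for detoxification genes, 1.44 and 2.84 for UDP-glycosyltransferases, 0.80 and 1.76 for autophagy genes, 1.43 and 4.38 for guard cell genes, -2.29 and -0.55 for stomatal lineage genes and -1.23 and -0.12 for ribosomal protein genes. It reached 0 under 1 or more alternatives for the NAC, MYB, P450 and beta-glucosidase families and the shoot meristem list. It changed sign for mesophyll, phloem, xylem, trichome, xyloglucan endotransglucosylase, aquaporin and ABC transporter genes. The sign also changed for gibberellin (-0.23 to 0.31), phenylpropanoid and flavonoid (-0.26 to 2.42) and peroxidase genes (-0.24 to 2.57). The same held for rapid stress and wound (-0.31 to 1.65), iron and copper (-0.02 to 0.49) and circadian clock genes (-0.7 to 0.94). Causes were not tested. At a biological coefficient of variation of 0.884 and 2 libraries a line, a difference that did not pass is not shown to be absent.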

Other observations

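Further gene groups were described by the position of the libraries. The EF-hand, MATE and acyl-transferase families were chosen after their values were seen. Of 32 EF-hand calcium-binding proteins, 14 had both myrBRX libraries above both libraries labelled BRX and 4 below, of 30 MATE efflux carriers 12 and 4, and of 25 HXXXD-type acyl-transferases 10 and 2, against 26.7% above and 22.4% below over all loci. Phosphate starvation genes lay above in 4 of 7: SPX1, a sensor of phosphate, had 33.6 and 33.3 CPM in myrBRX, against 0.763 and 13.7 CPM in the libraries labelled BRX, and SPX2 had 45.9 and 32.9 CPM in myrBRX, against 14.5 and 12.9 CPM in the libraries labelled BRX. Of the hypoxia genes, 5 of 10 lay above and 1 below. HRE2, an ethylene response factor of low oxygen, had 3.7 and 28.8 CPM in myrBRX, against 0 and 0.298 CPM in the libraries labelled BRX, while the fermentation gene PDC1 had 0.873 and 0.339 CPM in myrBRX, against 2.78 and 1.36 CPM in the libraries labelled BRX. Only 1 of 12 tested circadian clock genes lay above and 0 below.

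Of the phenylpropanoid and flavonoid genes, 5 of 14 lay above in myrBRX and none below (median log2 fold change 0.38). TT5, the chalcone isomerase, was among those above, at 16 and 12 CPM in myrBRX, against 4.0 and 5.59 CPM in the libraries labelled BRX. In some members BRX 1 was far above and BRX 2 below both myrBRX libraries. TT4, the chalcone synthase, had 53 and 52.5 CPM in myrBRX, against 340.5 and 0.595 CPM in the libraries labelled BRX. FLS1, the flavonol synthase, had 7.85 and 8.36 CPM in myrBRX, against 791 and 1.36 CPM in the libraries labelled BRX, and UGT78D1, which adds rhamnose to flavonols, had 42 and 7.06 CPM in myrBRX, against 693 and 5.32 CPM in the libraries labelled BRX. CYP707A3, which breaks down abscisic acid, showed the same shape at 76 and 34.9 CPM in myrBRX, against 1715 and 20.4 CPM in the libraries labelled BRX. The lines overlapped in these last 4 genes, which were chosen after their values were seen, and their signs turned to positive without BRX 1.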
